A study of Mus musculus with 165 samples.

Results

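The glutathione S-transferases are the enzymes that couple the tripeptide glutathione to electrophilic compounds, and 10 of their genes were followed here across age in mouse liver and brain. The genes were Gstp1, Gstp2 and Gstp3 of the pi class, Gstm1, Gstm2 and Gstm3 of the mu class, Gsta2, Gsta3 and Gsta4 of the alpha class and Gstt1 of the theta class. The family was picked with earlier results of these data known, and its members were taken by name, as the 10 rows whose Ensembl identifiers map to these symbols among the 55471 gene rows of each tissue's count table. Liver was the main tissue.

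All mice were males of the strain C57BL/6J/Ukj kept for ageing, with no treatment or genetic change given in the labels. Livers came from mice aged 3 months (n = 16), 9 months (n = 16), 15 months (n = 16), 24 months (n = 17) and 28 months (n = 18). The brains numbered 15, 16, 16, 17 and 18 at the same ages. A brain library of mouse 6 of the 3-month group is not used here. Poly(A) RNA was sequenced from strand-marking libraries made in 3 preparation batches, called preps in the labels, and each age and tissue had 4 to 7 libraries from each prep. Mice of different ages are different mice, so that the ages are groups and not time points of the same animals.

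Glutathione S-transferases are cytosolic dimers whose subunits are sorted into classes by sequence. They attach glutathione to drugs, carcinogens and products of lipid peroxidation, after which the conjugates are pumped out of the cell and turned into mercapturic acids. The liver is the organ in which these enzymes are most abundant, many of the genes are induced through the transcription factor Nrf2, and in mouse liver the pi class enzyme is known to be higher in males than in females. In brain, the mu class is associated with astrocytes and the pi class with mature oligodendrocytes.

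Total counts assigned to genes ranged from 5823039 to 57490197 in the liver libraries and from 11460609 to 73390216 in the brain libraries. The summed level of 7 hepatocyte markers, in CPM (read counts scaled to library size), had a median of 96364 in 3-month livers and of 145 in 3-month brains (range 19.6 to 5914), where Ttr, a marker in the list, is also made by the choroid plexus. Those of 8 neuron markers had a median of 6499 in the 3-month brains and 12.7 in the livers. In each tissue 2 libraries resembled the others of their age least, by the median Spearman correlation over genes. These were the livers of the 24-month mouse numbered 13 (0.934) and the 28-month mouse numbered 14 (0.956), and the brains of the 28-month mouse numbered 15 (0.869) and the 24-month mouse numbered 13 (0.954). Of the 3-month livers, those of the mice numbered 10, 12, 13, 15 and 16 stood apart from the rest (0.970 to 0.979, against 0.986 to 0.992). Where leaving out either set changed a call or moved a named value by over 1.5 times, the value without it is given below or with the processing settings.

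The 3 pi class genes stand side by side on chromosome 19 on the minus strand, with Gstp1 (ENSMUSG00000060803) at chr19:4035407-4037985, Gstp2 (ENSMUSG00000038155) at chr19:4040285-4046023 and Gstp3 (ENSMUSG00000058216) at chr19:4057477-4059569 of the GRCm38 build. Their sequences matter for reading the counts, because near-identical copies can share reads. Over the 633 coding bases of their main transcripts, Gstp1 and Gstp2 were 98.1% identical with 12 mismatches, whereas Gstp1 and Gstp3 were 72.5% identical. The first 60 coding bases from the GENCODE transcripts are shown, picked as the gap-free stretch of this length with the most mismatches. Capitals mark the 6 positions at which the pair differ.
Gstp1: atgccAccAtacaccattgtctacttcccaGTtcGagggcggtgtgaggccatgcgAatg
Gstp2: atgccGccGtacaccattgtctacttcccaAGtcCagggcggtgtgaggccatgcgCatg
Of all stretches of 100 bases in its main transcript, 52.8% for Gstp1 and 63.5% for Gstp2 also occurred unchanged in a transcript of another gene, namely the other member of the pair or the pseudogene Gstp-ps, against 0% for Gstp3. A single read from such a stretch cannot be assigned to Gstp1 or Gstp2 by its sequence alone, so the split of reads between them is uncertain. The libraries were read as pairs, whose mates can lie outside such a stretch. The shares above count single stretches and not read pairs. How the authors' counting treated reads that map to several places is not given in the sources used here.

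The other genes were less affected, with the exception of Gsta2. The mu class genes lie on the minus strand of chromosome 3, with Gstm1 (ENSMUSG00000058135) at chr3:108012255-108017973, Gstm2 (ENSMUSG00000040562) at chr3:107981702-107986453 and Gstm3 (ENSMUSG00000004038) at chr3:107963696-107969283. The share of 100-base stretches found in other genes was 7.73% for Gstm1, 0.622% for Gstm2 and 13.8% for Gstm3. Gsta2 (ENSMUSG00000057933, chr9:78331018-78355788, minus strand) shared 270 of its 771 stretches, with Gsta1 among others, and its coding sequence was 97.5% identical to that of Gsta1. Gsta4 (ENSMUSG00000032348, chr9:78182774-78209349, plus strand), Gsta3 (ENSMUSG00000025934, chr1:21240589-21265661, plus strand) and Gstt1 (ENSMUSG00000001663, chr10:75783813-75798584, minus strand) shared none. No other annotated gene overlapped any of the 10 on either strand.

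Promoters of 9 of the 10 genes were matched by symbol in RefSeq on GRCm38.p6, where Gsta4 had no entry, and the 250 bases before the start site were read. The promoters of Gstp1 (chr19:4037913-4038162, minus strand) and Gstp2 (chr19:4042222-4042471, minus strand) are shown because these near copies differed widely in level, and that of Gsta3 (chr1:21240335-21240584, plus strand) because it alone among the 9 held the searched antioxidant response element core. Capitals mark matches, on either strand, to that core (TGACNNNGC), to a Maf-type element (TGANTCAGC) or to the core of the xenobiotic response element (GCGTG).
Gstp1 promoter: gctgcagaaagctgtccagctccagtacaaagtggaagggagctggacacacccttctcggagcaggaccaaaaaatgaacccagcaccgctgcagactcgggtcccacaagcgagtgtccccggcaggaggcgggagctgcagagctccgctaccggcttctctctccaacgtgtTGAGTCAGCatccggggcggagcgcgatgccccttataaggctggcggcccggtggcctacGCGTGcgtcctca
Gstp2 promoter: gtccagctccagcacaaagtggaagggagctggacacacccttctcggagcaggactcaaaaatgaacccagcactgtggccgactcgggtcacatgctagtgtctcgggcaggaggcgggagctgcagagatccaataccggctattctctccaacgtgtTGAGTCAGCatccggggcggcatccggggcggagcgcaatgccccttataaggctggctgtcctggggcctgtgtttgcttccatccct
Gsta3 promoter: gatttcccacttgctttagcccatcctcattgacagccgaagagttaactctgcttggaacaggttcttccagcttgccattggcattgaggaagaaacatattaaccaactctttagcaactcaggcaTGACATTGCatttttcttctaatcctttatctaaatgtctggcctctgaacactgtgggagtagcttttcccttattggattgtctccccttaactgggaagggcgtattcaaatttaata
The Gstp1 and Gstp2 promoters were 78.1% identical, and both held a Maf-type element, which began 74 bases before the start of Gstp1 and 89 bases before that of Gstp2. Those letters were found in 1.02% of all 32851 promoters of this length and in no other of the 9, and they were chosen after the promoters had been read. The Gsta3 promoter held TGACNNNGC at 121 bases before the start, and 10.2% of all promoters held it. GCGTG was in the promoters of Gstp1, Gstp3, Gstm1 and Gsta2 and in 28.2% of all. The STAT site TTCNNNGAA, present in 7.02% of all promoters, was in none of the 9. No 2 matches overlapped in the printed promoters, and a match describes the letters only.

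In the liver of young adult mice, Gstm1, Gstp1 and Gsta3 were the most abundant of the 10 genes. Values are CPM scaled by the trimmed mean of M values, divided here by the length of all annotated exons in kilobases so that genes can be compared. At 3 months the level per kilobase was 1365 ± 268 (SD, n = 16) for Gstm1, 919 ± 203 for Gstp1 and 362 ± 57.6 for Gsta3. Gstt1 followed at 134 ± 33.4. Below it stood Gstm3 at 57.5 ± 28.8, Gstm2 at 35.9 ± 15.5 and Gsta4 at 34.8 ± 6.41, whose SD ranges overlapped one another. The lowest were Gstp3 at 20.2 ± 4.10, Gsta2 at 18.4 ± 6.57 and Gstp2 at 9.23 ± 2.57 per kilobase. With the length of the main transcript in place of all exons the leading genes came closer, at 1733 ± 382 for Gstp1, 1560 ± 306 for Gstm1 and 1079 ± 172 for Gsta3, so the order of the first 2 depends on the length used and their SD ranges overlapped.

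By 28 months Gstp1 had dropped from the second to the third place. Its level per kilobase of exons was 173 ± 63.3 (SD, n = 18), while Gstm1 was at 1142 ± 243, Gsta3 at 315 ± 58.7 and Gstt1 at 120 ± 26.6. The pi class accounted for 32.3 ± 6.51% of the summed level per kilobase of the 10 genes at 3 months, 25.4 ± 4.54% at 9 months, 21.2 ± 3.77% at 15 months, 13.3 ± 3.23% at 24 months and 10.4 ± 2.39% at 28 months. No 28-month liver (highest 17.3%) reached the lowest 3-month liver (24.7%). The mu class share went from 49.1 ± 5.55% at 3 months to 64.5 ± 2.90% at 28 months, and the alpha class share from 14.1 ± 1.62% to 18.9 ± 2.22%. These shares are parts of a whole and were not tested. With main transcript lengths the pi share was 37.0 ± 6.69% at 3 months and 12.1 ± 2.81% at 28 months. The summed level itself was 2956 ± 387 CPM per kilobase at 3 months, 2367 ± 579 at 24 months and 1950 ± 370 at 28 months.

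**Figure D1:**
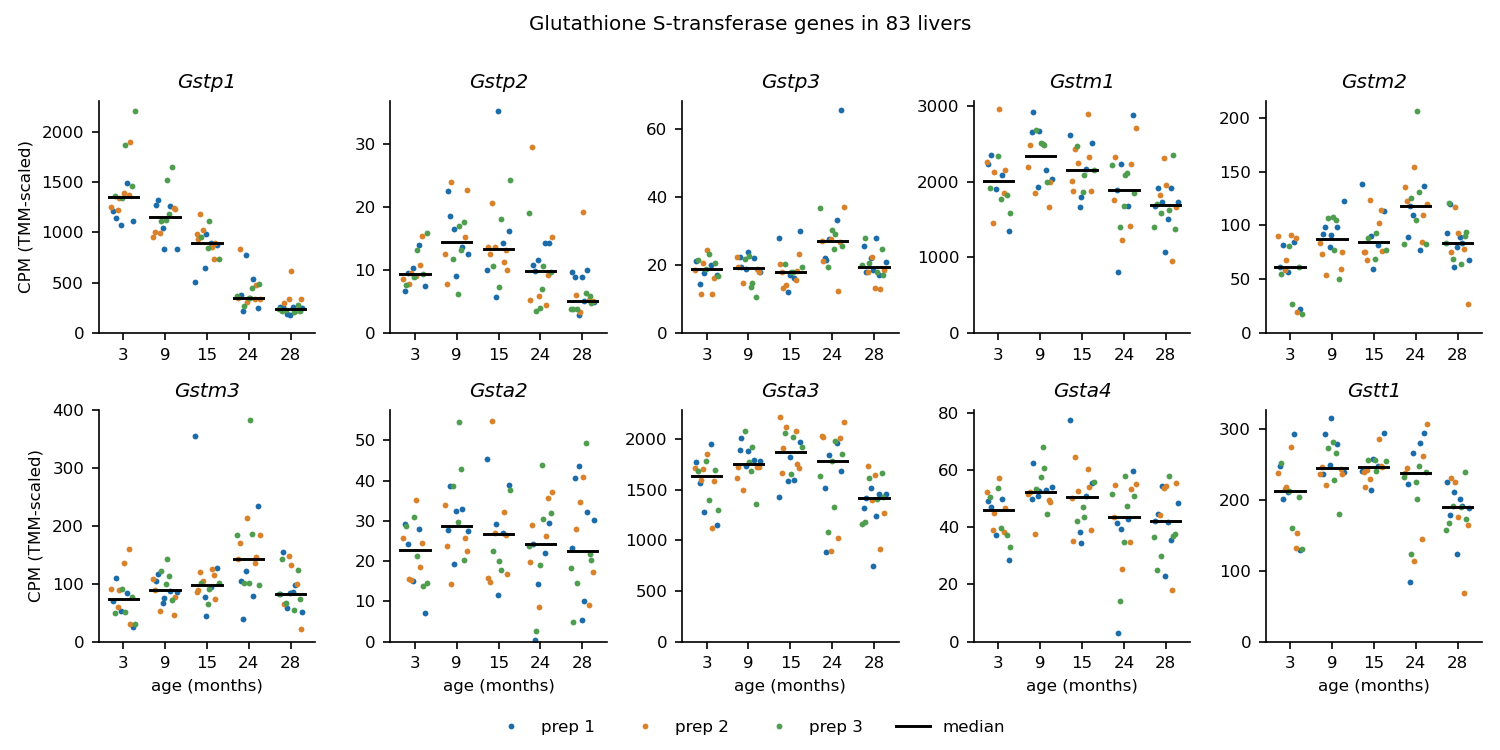
TMM-scaled CPM (y axis, linear, separate scale for each gene) of the 10 glutathione S-transferase genes in 83 livers by age in months (x axis). Each point is a liver coloured by its preparation batch, and black bars are medians. Gstp1 medians step down from 1354 at 3 months to 242 at 28 months, whereas Gstm2 and Gstm3 are highest at 24 months.

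Across the 5 ages, 8 of the 10 genes differed in liver at an adjusted p under 0.05 in edgeR's quasi-likelihood test with Benjamini-Hochberg adjustment over 15579 genes, with age and prep as terms. Of all genes tested, 71.5% passed the same test, so the share among the 10 genes was close to that of the transcriptome. The exceptions were Gsta4 (adjusted p = 0.117) and Gsta2 (adjusted p = 0.471). Gstp1 had the smallest adjusted p of the 10, at 1.84e-28. Apart from those of the permutation tests, the interaction term and the settings named, p-values below come from this model and measure the spread between these mice. In bulk tissue, fewer cells of a type and less RNA per cell cannot be told apart.

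Gstp1, the abundant pi class enzyme, which besides conjugating electrophiles binds and restrains the stress kinase JNK, fell in liver at 15 months and later. Its CPM at 3 months ranged from 1077 to 2207 with a median of 1354, and at 9 months from 832 to 1651 with a median of 1151. At 15 months it ranged from 508 to 1180 (median 895). At 24 months the range was 221 to 837 (median 350) and at 28 months 178 to 618 (median 242). Every liver of 24 and 28 months lay below every liver of 3 months, while the 9- and 15-month groups overlapped with it. The share of all genes whose age groups were separate in this way was not computed. All but 1 of the 28-month livers were also below all 15-month livers, the exception being the mouse numbered 10 at 618 CPM.

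The first tested difference of Gstp1 appeared at 15 months. At 9 against 3 months its log2 fold change was -0.27 (SE 0.13, adjusted p = 0.234), and 0 of the 10 genes passed in edgeR, where 4.69% of all genes did. By unadjusted p under 0.05, 4 of the 10 passed (Gstm2, Gstt1, Gstp2 and Gstp1), as did 19.9% of all genes, and limma voom called 0 of the 10 and 2.55% of all genes. DESeq2 called 1 of the 10 at that age (Gstm2, adjusted p = 0.0396) and 5.62% of all genes. At 15 against 3 months 2 of the 10 passed, against 7.32% of all genes. Gstp1 was 1.61-fold lower (log2 fold change -0.69, SE 0.13, adjusted p = 0.000197), and Gstm2 was higher (log2 fold change 0.59, SE 0.17, adjusted p = 0.0209). The Gstm2 call was lost when only the 3- and 15-month livers entered the fit (adjusted p = 0.0754), and without the 5 unlike livers of 3 months (log2 fold change 0.34, adjusted p = 0.289).

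At 24 against 3 months 4 of the 10 genes passed, 1 lower and 3 higher, where 49.0% of all genes passed. Gstp1 was 3.40-fold lower (log2 fold change -1.76, SE 0.13, adjusted p = 1.74e-18). Gstm3, Gstm2 and Gstp3 were the genes that rose, as described below. At 28 against 3 months 4 passed again (Gstp1, Gstp2, Gstm1 and Gstm2), 3 lower and 1 higher, with 61.9% of all genes passing. Gstp1 was 5.28-fold lower at that age (log2 fold change -2.40, SE 0.13, 95% interval -2.66 to -2.14, adjusted p = 7e-26), at rank 80 from the lowest log2 fold change among the 15579 genes. In preps 2 and 3 alone the value was -1.95 and -2.85, in prep 1 -2.405, and each passed. The median log2 fold change of the 10 genes was -0.13 and that of all genes 0.01. Without the 5 unlike livers of 3 months 4 of the 10 passed, against 59.0% of all genes, but these were Gstp1 (log2 fold change -2.30), Gstm1 (-0.36), Gsta3 (-0.32) and Gstt1 (-0.37), each lower.

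Between the older ages the fall of Gstp1 continued. At 24 against 15 months 2 of the 10 genes passed, where 36.0% of all genes did. Gstp1 was 2.11-fold lower (log2 fold change -1.07, SE 0.13, adjusted p = 1.12e-08), and Gstp3 was 1.51-fold higher (log2 fold change 0.60, SE 0.12, adjusted p = 0.000141). At 28 against 24 months 5 of the 10 passed, each of them lower at 28 months, where 15.3% of all genes passed. These were Gstp1 (log2 fold change -0.64, adjusted p = 0.000183), Gstp2 (-0.74, 0.011), Gstp3 (-0.53, 0.000976), Gstm2 (-0.49, 0.026) and Gstm3 (-0.77, 0.0106). A score of 12 circadian clock genes, whose transcription is rhythmic over the day, was above its mean over livers in 15 of 18 livers at 28 months, 4 of 17 at 24 months and 3 of 16 at 3 months. With this score as a covariate the share of all genes called was 1.75%, 1 of the 5 remained called (Gstp3, log2 fold change -0.59, adjusted p = 0.0217) and Gstp1 was at -0.37 (adjusted p = 0.156). The fall of Gstp1 from 3 to 28 months passed with the score in the model (log2 fold change -2.13, adjusted p = 1.73e-19). The part of the hour of dissection in these values was not tested.

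**Figure D2:**
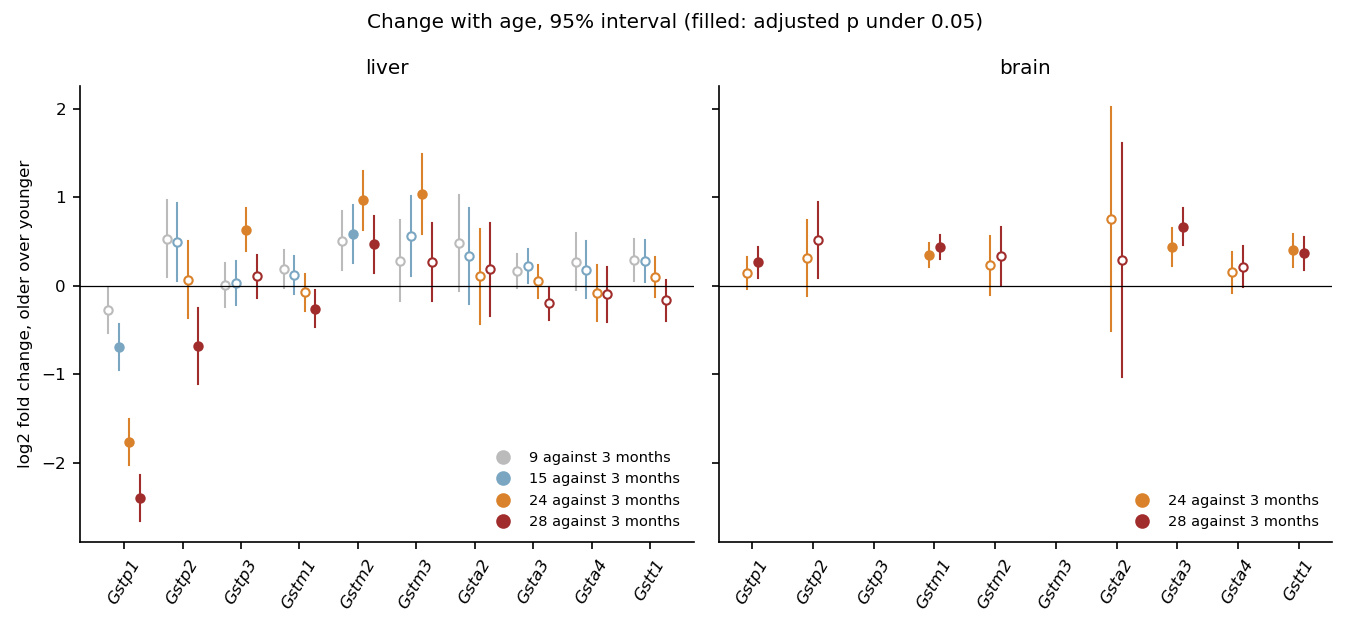
Log2 fold change of each gene against 3-month mice (y axis) in liver at 9, 15, 24 and 28 months (left panel) and in brain at 24 and 28 months (right panel). Points are edgeR estimates, lines are 95% intervals, and filled points have an adjusted p under 0.05; Gstp3 and Gstm3 were too low in brain to be tested. Gstp1 reaches -2.40 in liver at 28 months, while its brain estimate at that age is 0.27.

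Gstp2, the near copy of Gstp1, had its highest medians at 9 and 15 months. Its CPM had a lowest, median and highest value of 6.67, 9.41 and 15.9 at 3 months, 6.13, 14.5 and 24.0 at 9 months, and 5.74, 13.4 and 35.3 at 15 months. At 24 months the values were 3.56, 9.92 and 29.7, and at 28 months 2.88, 5.17 and 19.2. The groups overlapped at all ages, with 13 of 18 livers of 28 months below all livers of 3 months and 1 above them. Gstp2 was 1.60-fold lower at 28 than at 3 months (log2 fold change -0.68, SE 0.22, adjusted p = 0.00602), and this call was lost with the clock score in the model (-0.32, adjusted p = 0.287) and without the 5 unlike livers of 3 months (-0.52, adjusted p = 0.0598). At 9 and 15 months its log2 fold changes were 0.53 and 0.49 (adjusted p = 0.153 and 0.185), on the other side of 0 from Gstp1. In the same livers the Gstp1 median was 1354 CPM against 9.41 for Gstp2 at 3 months. With the reads of Gstp1, Gstp2 and Gstp3 summed to a single feature, which does not depend on how reads were split among them, the log2 fold change from 3 to 28 months was -2.29 (SE 0.13, adjusted p = 6.98e-26).

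Gstp3, the more distant pi class neighbour, was high at 24 months alone. Its CPM ran from 11.5 to 24.3 with a median of 18.7 at 3 months, from 10.6 to 23.8 (median 19.1) at 9 months, and from 12.0 to 30.0 (median 17.8) at 15 months. At 24 months the range was 12.4 to 65.3 (median 26.9), and 12 of 17 livers were above all livers of 3 months. At 28 months it was 12.8 to 28.0 (median 19.3), and the groups overlapped. Gstp3 was 1.55-fold higher at 24 than at 3 months (log2 fold change 0.63, SE 0.12, adjusted p = 1.87e-05). At 28 against 3 months its log2 fold change was 0.11 (adjusted p = 0.46).

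Gstm1, the most abundant member of the mu class, varied by less. Its CPM had a lowest, median and highest value of 1345, 2006 and 2957 at 3 months, 1660, 2335 and 2915 at 9 months, and 1665, 2159 and 2891 at 15 months. At 24 months these were 803, 1887 and 2876, and at 28 months 955, 1690 and 2346. The 28-month livers overlapped with the 3-month livers, and 16 of 18 were below the 3-month median. Gstm1 was 1.19-fold lower at 28 than at 3 months (log2 fold change -0.26, SE 0.11, adjusted p = 0.0326). This call was lost without any of 6 livers taken out singly, the 3-month mice numbered 4, 8, 9 and 13 and the 28-month mice numbered 9 and 14, with adjusted p from 0.0503 to 0.0808. It was also lost without the 2 least similar livers (-0.22, adjusted p = 0.0596), with the clock score (-0.15, adjusted p = 0.323), and with the reads of Gstm1, Gstm2 and Gstm3 summed (-0.21, adjusted p = 0.0788).

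Gstm2 and Gstm3, whose products are mu class enzymes of lower abundance and of which Gstm3 is strongly inducible by electrophiles in mouse liver, were highest at 24 months. For Gstm2 the lowest, median and highest CPM were 18.1, 61.5 and 91.4 at 3 months and 59.9, 85.1 and 139 at 15 months, with a median of 87.2 at 9 months. They were 77.0, 118 and 206 at 24 months and 26.9, 83.7 and 121 at 28 months. All 17 livers of 24 months were above the 3-month median, and 12 of them were above every liver of 3 months. The 3-month group itself was split, with the mice numbered 10, 13, 15 and 16 between 18.1 and 27.4 CPM. These 4 livers were among the 5 of 3 months that resembled the others of their age least, and the fifth, that of mouse 12, had 88.2 CPM. Gstm2 was 1.95-fold higher at 24 than at 3 months (log2 fold change 0.96, SE 0.17, adjusted p = 2.2e-06) and 1.39-fold higher at 28 months (log2 fold change 0.47, SE 0.17, adjusted p = 0.0106). The latter call was lost under limma voom with quality weights, where the log2 fold change was 0.30 (adjusted p = 0.0752). Without the 5 unlike livers of 3 months the log2 fold change was 0.70 at 24 months (adjusted p = 7.55e-05) and 0.20 at 28 months (adjusted p = 0.239), so the call at 28 months was lost.

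Gstm3 moved in the same direction with a wider spread. Its CPM ranged from 24.6 to 160 (median 73.8) at 3 months, from 45.6 to 142 (median 88.8) at 9 months and from 45.0 to 356 (median 97.2) at 15 months. The range was 38.6 to 383 (median 143) at 24 months and 22.0 to 155 (median 82.7) at 28 months. The groups overlapped at all ages, and 7 of 17 livers of 24 months exceeded every liver of 3 months. Gstm3 was 2.06-fold higher at 24 than at 3 months (log2 fold change 1.04, SE 0.23, adjusted p = 0.000133). At 28 against 3 months the log2 fold change was 0.27 (adjusted p = 0.301), and with the clock score as a covariate it was 0.61 (adjusted p = 0.043). Without the 5 unlike livers of 3 months the values were 0.88 at 24 months (adjusted p = 0.00188) and 0.10 at 28 months (adjusted p = 0.724).

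Gsta3, the main alpha class enzyme of mouse liver, which detoxifies the epoxide of aflatoxin B1, was abundant at all ages. Its CPM ranged from 1122 to 1951 (median 1639) at 3 months, from 1359 to 2079 (median 1758) at 9 months and from 1428 to 2220 (median 1871) at 15 months. At 24 months the range was 888 to 2174 (median 1786) and at 28 months 751 to 1737 (median 1415). The groups overlapped, with 15 of 18 livers of 28 months below the 3-month median. It differed over the 5 ages (adjusted p = 0.000584), but no comparison against 3 months passed. The log2 fold change at 28 months was -0.20 (SE 0.10, adjusted p = 0.064), and it passed when any of 5 livers was left out, namely the 3-month mice numbered 12, 15 and 16 or the 28-month mice numbered 5 and 15 (adjusted p from 0.039 to 0.048). It also passed without the 5 unlike livers of 3 months (-0.32, adjusted p = 0.00694).

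Gstt1, the theta class enzyme known for acting on small halogenated compounds, resembled Gsta3. Its CPM ranged from 130 to 292 (median 211) at 3 months, 84.2 to 306 (median 237) at 24 months and 68.8 to 238 (median 189) at 28 months. The groups overlapped. Over the 5 ages the adjusted p was 0.00132, and at 28 against 3 months the log2 fold change was -0.16 (SE 0.12, adjusted p = 0.22). It was -0.11 without the 2 least similar livers (adjusted p = 0.374), and it passed without the 5 unlike livers of 3 months (-0.37, adjusted p = 0.00773). The lowest value, 68.8 CPM, was that of the 28-month liver numbered 14, which resembled its age group least. That liver also had the lowest summed hepatocyte markers of the 28-month group (32812 CPM, against a median of 104086) and the highest summed cholangiocyte markers (228, against 69.9). The part of its cell makeup in these values was not tested.

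Gsta2 and Gsta4 did not pass in any liver comparison of the edgeR model. Gsta4 is the alpha class enzyme specialised in conjugating 4-hydroxynonenal, a product of lipid peroxidation, and Gsta2 encodes an inducible subunit. Gsta2 CPM ranged from 7.16 to 35.2 (median 22.7) at 3 months, 0.41 to 43.8 (median 24.3) at 24 months and 4.75 to 49.4 (median 22.5) at 28 months. Gsta4 ranged from 28.7 to 57.2 (median 45.9) at 3 months, 3.02 to 59.7 (median 43.6) at 24 months and 18.2 to 57.9 (median 42.1) at 28 months. In both genes the medians were close, while the coefficient of variation went from 35.6% at 3 months to 50.7% and 55.1% at 24 and 28 months for Gsta2, and from 18.4% to 37.4% and 28.9% for Gsta4. The 95% intervals of the log2 fold change from 3 to 28 months were -0.34 to 0.71 for Gsta2 and -0.41 to 0.22 for Gsta4. Without the 5 unlike livers of 3 months the estimates were 0.036 and -0.21 (adjusted p = 0.928 and 0.319), and without the 2 least similar livers the Gsta4 estimate was -0.050 (adjusted p = 0.799). With Gsta1 and Gsta2 summed the estimate was 0.17 (adjusted p = 0.602).

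The lowest values of these 2 genes came from the same mice. The 24-month liver numbered 5 had 0.41 CPM of Gsta2 and 3.02 CPM of Gsta4, and the 24-month liver numbered 6 had 2.61 and 14.3. The former was also the lowest of its age in Gstm1 (803 CPM), Gstm3 (38.6), Gsta3 (888), Gstt1 (84.2) and Gstp1 (221), while its Gstm2 at 118 CPM was the median of the age. At 28 months the liver numbered 9 was the lowest in Gsta3 (751 CPM) and Gstp1 (178 CPM) and the second lowest in Gsta2, Gsta4, Gstm1 and Gstt1. These livers were singled out after their values had been seen.

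Across the 83 livers, with the means of age and prep removed from log2 CPM, part of the gene pairs were correlated. Of 45 pairs tested by permutation (100000 resamples, Benjamini-Hochberg adjustment over the 45), 22 passed by Pearson's r, 21 with a positive and 1 with a negative sign, and 20 passed by Spearman's rho as well. The other 23 did not pass by r, among them all pairs of Gstp2 except that with Gstp1, and the share of correlated pairs among all genes was not computed. The closest pair was Gsta2 and Gsta4 (r = 0.92, rho = 0.86), followed by Gsta3 and Gstt1 (r = 0.85, rho = 0.78) and Gstm2 and Gstm3 (r = 0.79, rho = 0.78). For each of these the permutation p was 1e-05, the smallest that this number of resamples can give (adjusted 3.21e-05). Without the 2 livers farthest from the median of the first gene, r was 0.85, 0.84 and 0.75. In each prep alone Gsta2 and Gsta4 had r of 0.93, 0.85 and 0.95, and all 22 pairs kept their sign in the 3 preps.

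The pairs did not follow the classes in all cases. Gstm1 was closer to Gstt1 (r = 0.78) and Gsta4 (r = 0.77) than to Gstm3 (r = 0.56) or Gstm2 (r = 0.33), although these differences of r were not tested. Gstp1 correlated with Gstp2 (r = 0.55, rho = 0.49, adjusted p = 3.21e-05 by permutation), a pair that shares sequence, and with Gsta3 (r = 0.41, rho = 0.33, adjusted p = 0.00405 by permutation). With Gsta3, r was 0.02 in prep 3 alone. Gstp1 and Gstp3 gave r = -0.12 (adjusted p = 0.358 by permutation). The negative pair was Gstp1 and Gstm2 (r = -0.27, adjusted p = 0.0192 by permutation), for which rho was -0.23 with an adjusted p of 0.0664.

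**Figure D3:**
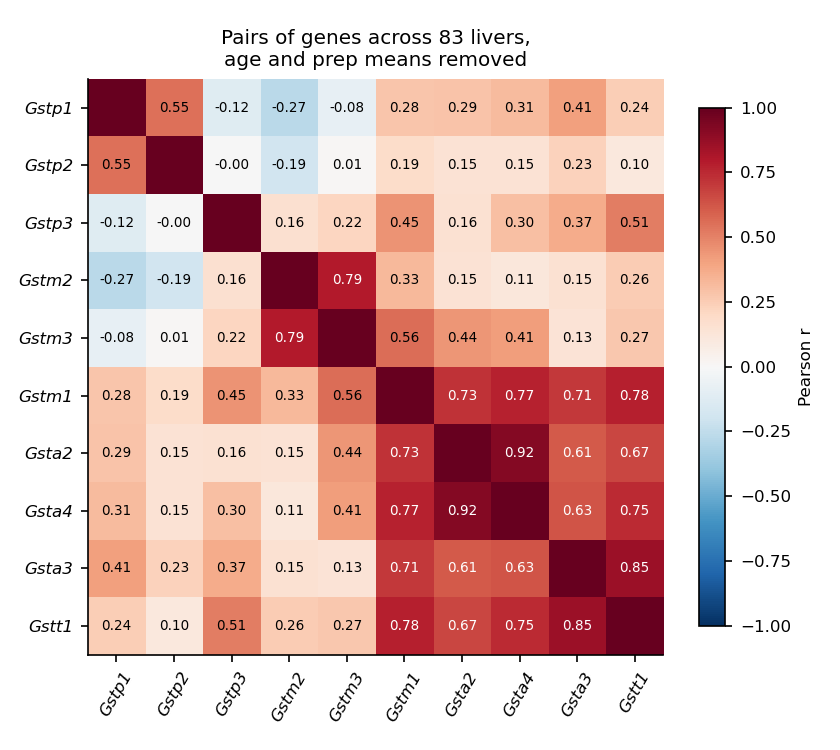
Pearson correlation (colour and number) of log2 CPM for each pair of the 10 genes across 83 livers after the means of age and prep were removed. The block of Gstm1, Gsta2, Gsta4, Gsta3 and Gstt1 holds values from 0.61 to 0.92, whereas the Gstp1 row runs from -0.27 to 0.55.

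Genes outside the family with the most similar course were listed for a gene of each class that was abundant, as a description over 83 livers with age and prep removed and 12734 genes compared. For Gstp1 they were Pdilt (r = 0.71), Hsd3b5 (r = 0.70) and Mup1 (r = 0.70), of which Hsd3b5, a hydroxysteroid dehydrogenase, and Mup1, a major urinary protein, are genes known for higher expression in male liver. For Gsta3 they were Hibadh (r = 0.88), Galm (r = 0.88) and Nipsnap1 (r = 0.87). For Gstm1 they were Gm8834 (r = 0.96), which shares sequence with Gstm1, Creg1 (r = 0.78) and Ehhadh (r = 0.74).

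The likeness of Gstp1 and Hsd3b5 was visible in single livers. Hsd3b5 had a lowest, median and highest CPM of 99.6, 215 and 374 at 3 months, 0.08, 6.80 and 211 at 24 months, and 0.049, 0.235 and 48.0 at 28 months. The 28-month liver with the most Gstp1 (618 CPM, mouse 10) also had the most Hsd3b5 of its age (48.0 CPM) and the most Slco1a1, a male-biased organic anion transporter (144 CPM). At 24 months the 2 livers highest in Gstp1, those of mice 3 and 7 with 837 and 779 CPM, had the most Hsd3b5 of that age, at 178 and 211 CPM. At 15 months the liver lowest in Gstp1 (508 CPM, mouse 1) was the lowest in Hsd3b5 (15.8 CPM), and it had the most Gstm3 of its age (356 CPM). The other ends did not match at the older ages. The lowest Gstp1 was in mouse 9 at 28 months (Hsd3b5 0.227 CPM) and in mouse 5 at 24 months (0.224 CPM), while the lowest Hsd3b5 was in mouse 15 at both ages (0.049 and 0.08 CPM). These mice were picked out after their values had been seen.

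**Figure D4:**
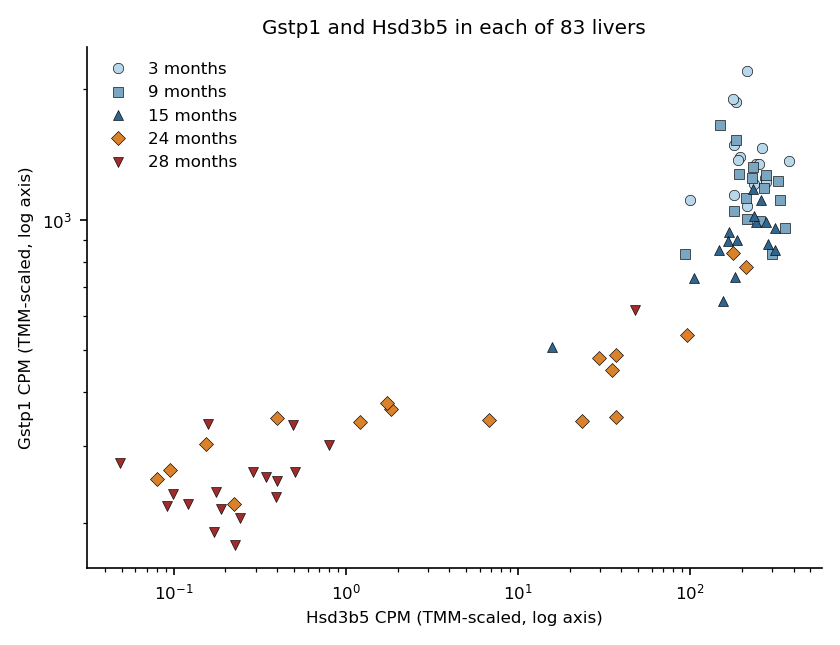
Gstp1 (y axis) against Hsd3b5 (x axis), both as TMM-scaled CPM on log axes, with a point for each of 83 livers and a colour and shape for each age. Most livers of 28 months lie at the lower left, the 24-month livers spread between, and the 28-month liver at 48.0 CPM of Hsd3b5 and 618 CPM of Gstp1 lies apart from its age group.

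Lists of related genes were counted in liver at 28 against 3 months, where 31.9% of all genes rose and 30.0% fell. Of 13 male-biased liver genes all 13 fell (median log2 fold change -3.54, against 0.01 for all genes), including Hsd3b5 (-6.67) and Slco1a1 (-6.28). Of 13 female-biased genes tested 12 rose and none fell (median 5.65), including Slc22a26, an organic anion transporter (7.71). At 24 months, where 25.0% of all genes rose and 24.0% fell, 12 of the 13 male-biased genes had fallen (median -1.61) and 10 of the 13 female-biased genes had risen (median 2.71). Among 25 genes of factors known to regulate glutathione S-transferases or sex-biased liver genes 6 rose and 9 fell (median -0.08). Bcl6, a repressor of female-biased genes, fell by 2.00 and Ghr, the growth hormone receptor, by 0.67 on the log2 scale, while Cux2, a female-biased transcription factor, rose by 6.18 and Nr1i3, the xenobiotic receptor CAR, by 0.61.

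Genes of the wider family did not move in a single direction in liver. Of 18 other glutathione transferase and related genes tested, 6 rose, 6 fell and 6 did not pass (median -0.13), shares close to the 31.9% and 30.0% of all genes. Mgst1, the abundant microsomal enzyme, fell by 0.83 on the log2 scale (SE 0.08, adjusted p = 4.84e-15), from 2894 ± 389 CPM (SD, n = 16) to 1621 ± 317 CPM (n = 18). Gstm4 and Gstm6 fell by 0.61 and 0.51. Mgst2 rose by 2.14, Hpgds, which makes prostaglandin D2 in blood-derived cells, by 2.04, and the chloride channel relative Clic1 by 0.85. The first 2 were low at 3 months, with means of 0.179 and 1.71 CPM.

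The supply of glutathione and the export of conjugates were followed in the same comparison. As above, 31.9% of all genes rose and 30.0% fell, so counts near these shares say nothing particular about a list. Of 27 genes of glutathione synthesis and recycling 7 rose and 12 fell (median -0.10). Gclc, the catalytic subunit of the rate-limiting enzyme of glutathione synthesis, fell by 1.03 (SE 0.14, adjusted p = 3.23e-09), from 397 to 194 CPM on average. Glo1, which clears methylglyoxal with glutathione, fell by 0.97, and Slc7a11, the cystine importer, rose by 2.90 from a mean of 0.0743 CPM. All 7 glutathione peroxidase genes tested passed, 4 higher and 3 lower (median 0.35); Gpx1 fell by 0.38 and Gpx3 rose by 1.15. Of 13 genes for export and mercapturate formation 3 rose and 4 fell (median -0.12). The exporter Abcg2 fell by 1.14, Nat8f1 fell by 0.69, and the exporters Abcc4 and Abcc1 rose by 1.59 and 1.44. Among 17 other targets of Nrf2 3 rose and 10 fell (median -0.19). Me1, malic enzyme, fell by 2.09 and Ephx1, microsomal epoxide hydrolase, by 1.05, while Hmox1, heme oxygenase, rose by 1.71 and Nqo1, a quinone reductase, by 0.98.

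Markers of other cell types moved with age in the same livers, in a comparison in which 31.9% of all genes rose and 30.0% fell. Summed macrophage markers had a median of 557 CPM at 3 months and 1484 CPM at 28 months (ranges 458 to 1602 and 718 to 5962), and 10 of 11 rose. Summed lymphocyte markers went from a median of 14.1 CPM (range 9.81 to 46.1) to 49.5 CPM (20.5 to 371), and 10 of 11 rose. Summed stellate and endothelial markers went from a median of 531 CPM (range 460 to 594) to 670 CPM (583 to 770), with 6 of 11 higher and 1 lower, and summed cholangiocyte markers from 72.2 CPM (63.8 to 96.2) to 69.9 CPM (52.6 to 228), with 2 of 6 tested higher and 1 lower. Summed hepatocyte markers had medians of 96364 and 104086 CPM (ranges 69699 to 109112 and 32812 to 122555), with 4 of 7 lower and none higher, and no marker of these 5 lists that was measured was at 0 throughout either group. Of 16 pericentral genes 5 rose and 5 fell, and of 14 periportal genes 4 rose and 3 fell. The part of these shifts in the transferase values was not tested.

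In brain the genes that changed with age were higher in the old mice. At 3 months the level per kilobase of exons was 125 ± 9.86 (SD, n = 15) for Gstm1, 44.1 ± 3.85 for Gstp1 and 22.7 ± 3.13 for Gsta4, and it was under 4 for the other 7 genes. Gstm3 and Gstp3 were near or at 0, with at most 3 counts in 14 and 15 of the 15 brains of 3 months, and were not tested. Gsta2 was little higher, with at most 3 counts in 11 of 15 brains of 3 months and 12 of 18 of 28 months. The pi class held between 20.6% and 25.7% of the summed level at 3 months (median 22.4%) and between 18.3% and 23.3% at 28 months (median 21.0%).

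Of the 8 genes tested in brain, 3 differed over the 5 ages (Gsta3, Gstm1 and Gstt1), where 20.6% of all 18711 genes did. At 24 against 3 months 3 genes passed, again Gsta3, Gstm1 and Gstt1, each higher at 24 months, where 10.1% of all genes passed. At 28 against 3 months 4 of the 8 passed, each higher at 28 months, where 28.3% of all genes passed. The median log2 fold change of the 8 genes was 0.35, against 0.01 for all genes.

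Gstm1 in brain had a lowest, median and highest CPM of 170, 181 and 224 at 3 months, 203, 227 and 317 at 24 months, and 193, 235 and 505 at 28 months. All 18 brains of 28 months were above the 3-month median, and 12 were above every 3-month brain. It was 1.35-fold higher at 28 months (log2 fold change 0.44, SE 0.07, adjusted p = 6.75e-07). Gsta3 was low in brain but countable, with a median of 55 counts at 3 months. Its CPM ranged from 0.859 to 1.76 (median 1.29) at 3 months and from 1.55 to 4.02 (median 1.88) at 28 months, where 13 of 18 brains exceeded all 3-month brains. It was 1.59-fold higher (log2 fold change 0.67, SE 0.11, adjusted p = 9.72e-07). Gstt1 ranged from 4.81 to 7.68 CPM (median 5.83) at 3 months and from 4.55 to 16.9 (median 7.53) at 28 months, with overlap. It was 1.29-fold higher (log2 fold change 0.37, SE 0.10, adjusted p = 0.00203), and with the clock score as a covariate its adjusted p was 0.0509. Gstt1 had also passed at 15 against 3 months (log2 fold change 0.38, SE 0.10, adjusted p = 0.0319), where 163 of all 18711 genes passed. That brain comparison was not among those planned, and no alternative setting was run for it.

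The size of the Gstp1 change in brain depended on a single library. Its CPM ranged from 58.7 to 82.7 (median 66.8) at 3 months and from 66.8 to 207 (median 74.4) at 28 months. The highest brain, mouse 15 at 207 CPM, stood apart from the other 17 brains of 28 months, none of which exceeded 91.3 CPM. Gstp1 was 1.20-fold higher at 28 months (log2 fold change 0.27, SE 0.09, adjusted p = 0.0178). Without the brain of mouse 15 the value was 0.13 (adjusted p = 0.0911), and without both of the 2 least similar brains it was 0.13 (adjusted p = 0.00818). The former fit kept the estimate of spread between libraries made with mouse 15 included, while the latter made it anew. These 2 adjusted p are therefore not directly comparable. In each prep alone it was 0.16, 0.09 and 0.53, and none of these passed (adjusted p = 0.121, 0.906 and 0.0926). With only the 3- and 28-month brains in the fit the adjusted p was 0.0941.

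The brain of the 28-month mouse 15 and that of the 24-month mouse 13 were the highest of their ages in several members. They had 505 and 317 CPM of Gstm1, 115 and 77.7 CPM of Gsta4, 16.9 and 12.0 CPM of Gstt1, and 3.10 and 1.59 CPM of Gstp2. The brain of mouse 15 had the fewest counts of all brains, the lowest summed neuron markers of its age (3640 CPM, against a median of 6632) and the highest summed oligodendrocyte markers (14724 CPM, against a median of 5087). Gstm1, Gsta3 and Gstt1 passed at 28 months without both brains, with log2 fold changes of 0.34, 0.61 and 0.28 (adjusted p = 2.44e-09, 9.79e-07 and 0.00284). The remaining tested genes did not pass at 28 months, with log2 fold changes of 0.52 for Gstp2 (adjusted p = 0.0667), 0.33 for Gstm2 (0.13), 0.22 for Gsta4 (0.159) and 0.29 for Gsta2 (0.775). Without the 2 least similar brains these values were 0.33 for Gstp2, 0.29 for Gstm2, 0.02 for Gsta4 and 0.077 for Gsta2 (adjusted p = 0.148, 0.176, 0.787 and 0.942). Gstp2 passed without any of 3 brains, the 3-month mice numbered 11 and 15 and the 28-month mouse numbered 6 (adjusted p = 0.0481, 0.0322 and 0.0398), and Gstm2 without the 3-month mouse numbered 5 (0.0307).

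**Figure D5:**
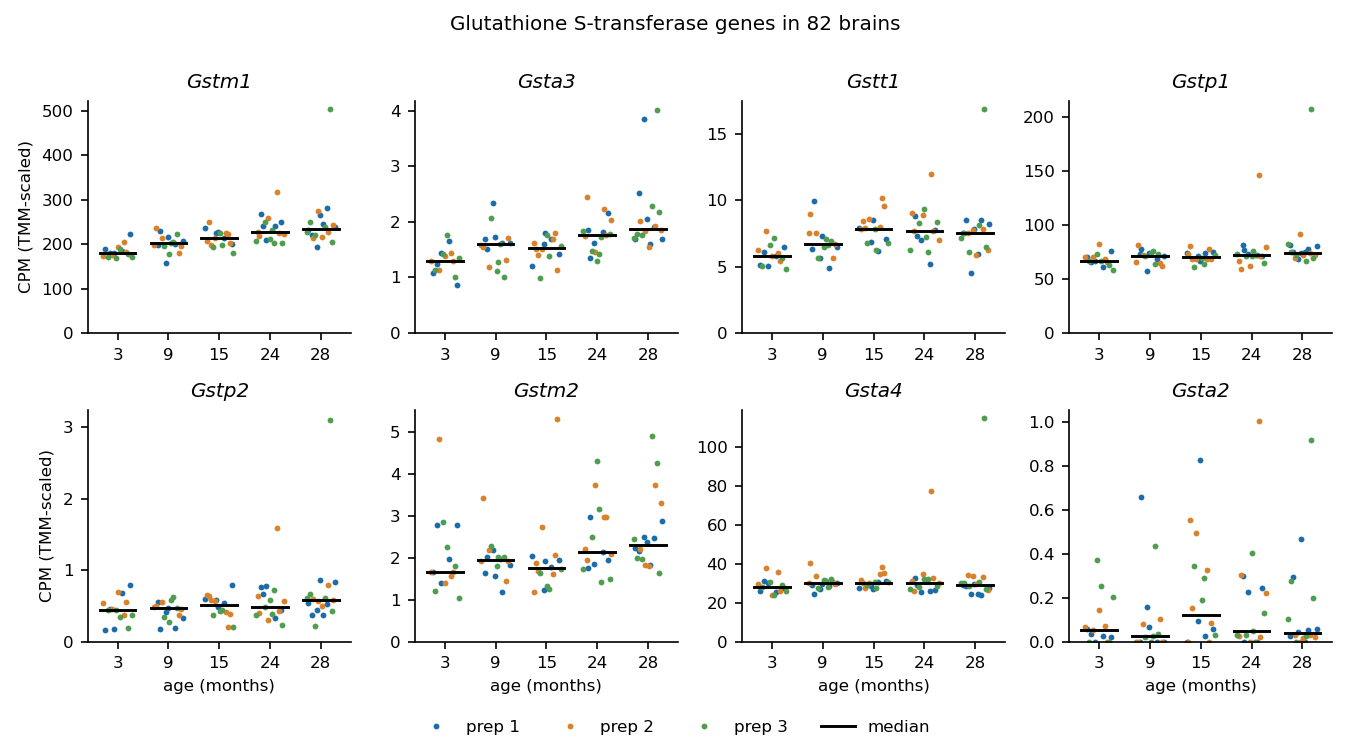
TMM-scaled CPM (y axis, linear, separate scale for each gene) of the 8 tested glutathione S-transferase genes in 82 brains by age in months (x axis), with a point for each brain coloured by preparation batch and black bars for medians. Gstm1 medians go from 181 at 3 months to 235 at 28 months, and a single 28-month brain is highest in Gstm1 (505), Gstp1 (207), Gsta4 (115) and Gstt1 (16.9).

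Other lists in brain were counted at 28 against 3 months, where 16.3% of all genes rose and 12.0% fell. Of 19 other glutathione transferase and related genes 11 rose and none fell (median 0.22), and of 16 other Nrf2 targets 8 rose and none fell (median 0.23). The summed CPM of the first list had medians of 732 at 3 months and 751 at 28 months (highest brain 1795). For the second list the medians were 2432 and 3042 (highest brain 15992). These counts were not repeated without the least similar brains. Of 8 astrocyte markers 3 rose, among them Gfap (0.75, adjusted p = 1.63e-12), and 2 fell, among them Aqp4 (-0.46, adjusted p = 0.00299). Of 8 oligodendrocyte markers 1 rose, and of 8 microglia markers 7 rose. Summed microglia markers had medians of 368 CPM at 3 months and 457 CPM at 28 months, and summed astrocyte markers 5258 and 5782 CPM. Their part in the transferase values was not tested.

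The change from 3 to 28 months differed between liver and brain for 5 of the 8 genes that could be tested in both, by an interaction term in a model of the 83 liver and 82 brain libraries, where 49.2% of all 14035 genes passed. Written as liver minus brain, the difference of the log2 fold changes was -2.62 for Gstp1 (SE 0.16, adjusted p = 3.61e-32), -1.12 for Gstp2 (SE 0.32, adjusted p = 0.00229) and -0.82 for Gsta3 (SE 0.14, adjusted p = 9.23e-07). It was -0.65 for Gstm1 (SE 0.13, adjusted p = 8.69e-06) and -0.49 for Gstt1 (SE 0.15, adjusted p = 0.00482). In all 5 the liver value lay below the brain value. The difference did not pass for Gsta4 (-0.27, SE 0.20, adjusted p = 0.262), Gstm2 (0.17, SE 0.24, adjusted p = 0.573) or Gsta2 (-0.03, SE 0.60, adjusted p = 0.973).

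Within mice, liver and brain levels of the same gene were not detectably related. Over the 82 mice with both tissues and with age and prep removed, 0 of the 8 genes passed (permutation test, adjusted over the 8). The largest was Gsta3 (r = 0.27, rho = 0.22, adjusted p = 0.117 by permutation), which had r of 0.36, 0.17 and 0.31 in the 3 preps and 0.27 without the 2 mice farthest from the median. For Gstp1 r was -0.12 and rho -0.10 (adjusted p = 0.881 by permutation). By unadjusted p under 0.05, Gsta3 passed by both measures (p = 0.0146 and 0.045 by permutation) and Gsta4 by rho (-0.24, p = 0.0355 by permutation).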

How the data were processed

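Polyadenylated RNA of 83 mice was sequenced as 100 bp paired ends with a strand-marking kit, per the labels. The authors deposited raw counts per Ensembl gene in 1 table for each tissue, and the counts were used as deposited. The submitters' processing notes name cutadapt 2.8, HISAT2 2.1.0, SAMtools 1.9 and featureCounts of Subread 2.0.1 with GRCm38.p6 and mm10. The annotation, strand setting and treatment of multiply mapped reads are not given in the sources used here. GENCODE vM21 gave symbols for 55144 of 55471 identifiers, and coordinates and transcripts.

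Genes that passed filterByExpr were tested with edgeR 4.0.16 (R 4.3.3) per tissue, by the quasi-likelihood test with age and prep as terms and all 5 ages in the fit, 0.05 as the threshold after Benjamini-Hochberg adjustment, and TMM scaling. Liver against brain was an interaction term over both tissues' libraries, without a term for the mouse. Log2 CPM for correlations used a prior count of 2, and 3 counts was the floor. Alternatives were RLE size factors, no filter, no prep term, each prep, only the ages compared, a replicate block, the clock score (mean z of log2 CPM of 12 clock genes, with Arntl, Npas2 and Clock turned), each library or the least similar ones left out, summed near copies, DESeq2 1.42.0 and limma 3.58.1. Fits with a single library left out kept the tested genes and the trended dispersion (the estimate of spread between libraries) of the full data. The test code was checked on simulated data. No 2 libraries of the same tissue and age held the same counts. All 10 members are named, and of other lists at most the 3 highest and 3 lowest called genes in liver at 28 against 3 months. The members and lists were chosen with earlier results of these data known.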

Additional observations from a re-analysis of the deposited data

Results flagged for a closer look

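The change from 3 to 28 months differed between liver and brain in 5 genes, by the interaction term of edgeR's quasi-likelihood test with Benjamini-Hochberg adjustment over 14035 genes, where 49.2% passed. Given as liver minus brain on the log2 scale, the difference was -2.62 for Gstp1, -1.12 for Gstp2, -0.82 for Gsta3, -0.65 for Gstm1 and -0.49 for Gstt1. Every 28-month liver was below every 3-month liver in Gstp1, while in brain 17 of 18 mice of 28 months were above the 3-month median. How often this occurred among all genes was not computed. Gstp2 shares 63.5% of its 100-base stretches with Gstp1 or the pseudogene Gstp-ps, so that its value depends on how reads were assigned. The test for a single outlying value in a group was not run, since each group had more than 10 samples.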

How the results depend on the processing

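Single libraries left out aside, 1032 tests of single genes kept their direction and side of the threshold, 87 lost the call, 23 gained it and 35 turned. Of the counts over all genes 40 moved by over 1.5 times and 85 did not. Of the correlations 92 moved by more than the standard error of r, among them 25, 26 and 32 in preps 1, 2 and 3 alone, and 173 did not. None of the turned values was called. The fall of Gstp1 in liver from 3 to 28 months was called under all settings, between -2.50 and -2.35 with each liver left out. The causes of the changes below were not tested, except that a single prep has fewer libraries.

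Members called, against 0 at 9 against 3 months in liver, were 1 with DESeq2, where 5.62% of all genes passed. At 15 months the 2 called became 0, 0 and 0 in preps 1, 2 and 3. Of all genes 0.373%, 0.407% and 0.0878% passed there. The count was 1 with only the 2 ages, where 4.95% of all genes passed. It was also 1 without the 5 livers of 3 months least like their age, where 2.34% did. At 24 months the 4 became 2 in prep 1 and 1 in prep 2, where 5.83% and 15.5% of all genes passed. At 28 months the 4 became 1 and 1, where 39.9% and 15.6% did. At 24 against 15 months the 2 became 0, 1 and 1 by prep, where 0.0193%, 16.7% and 8.09% of all genes passed. With limma voom the 2 became 4, where 35.8% of all genes passed. At 28 against 24 months the 5 became 2, 0 and 1 by prep, where 16.2%, 0% and 1.24% of all genes passed. They became 1 with the clock score and 8 with voom, where 1.75% and 28.9% of all genes passed. Over all ages the 8 became 3 in prep 1 and 1 in prep 2, where 38.2% and 28.4% of all genes passed. In brain, the 3 at 24 months became 0 in preps 1 and 3, where 1.19% and 0.486% of all genes passed. The 4 at 28 months became 2, 0 and 2 by prep. Of all genes, 1987 of 18658, 368 of 18769 and 1205 of 18942 passed there. The 3 over all ages became 1, 0 and 0 by prep, where 4.84%, 1.42% and 1.99% of all genes passed. They became 5 with voom, where 42.7% of all genes passed. With each library left out, members called at 28 against 3 months ranged from 3 to 5 in both tissues, over 9354 to 9747 genes in liver and 4633 to 5567 in brain.

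Turned values at 9 against 3 months were, for Gstp3, -0.27 in prep 3, -0.01719 with voom, -0.004377 under the replicate block and -0.03222 without those 5 livers, and in prep 2 -0.05744 for Gstm1 and -0.33 for Gstm3. At 15 months Gstp3 was -0.10 in prep 3, -0.07659 with voom and -0.009595 without the 5 livers. At 24 months prep 3 gave -0.29 for Gstp2, 0.005537 for Gstm1 and 0.001087 for Gsta4, and Gsta2 was -0.19 in prep 1 and -0.01544 with voom. At 24 months without the 5 livers Gsta2 was -0.03193, Gsta3 -0.06632 and Gstt1 -0.09762. At 28 months prep 2 gave -0.008804 for Gstp3 and -0.008822 for Gstm3, and Gsta2 was -0.02803 in prep 3 and -0.08467 with voom. At 24 against 15 months Gstm3 was -0.26 in prep 1 and Gsta2 0.06842 in prep 3. At 28 against 24 months Gsta2 was -0.24 in prep 3 and -0.06923 with voom, and Gsta4 was 0.14 and 0.03077 in preps 1 and 2, 0.01447 with the clock score, 0.008796 without the 2 least similar livers and 0.009502 under the replicate block. In brain at 24 months Gsta2 was -0.69 in prep 3 and Gsta4 -0.009105 in prep 1. In brain at 28 months Gsta2 was -1.75 with the clock score, -1.52 in prep 2 and from -0.02435 (without the mouse numbered 9) to 0.59 with each brain left out, and Gsta4 was -0.06913 in prep 1.

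Counts over all genes that moved were, from 731 at 9 months, 12, 12 and 3 by prep, 342 with 2 ages, 398 with voom and 101 without the 5 livers, and, from 1140 at 15 months, 58, 64 and 14 by prep, 708 with 2 ages and 369 without the 5 livers. The 7636 at 24 months became 906 in prep 1 and 2443 in prep 2, the 9639 at 28 months 6198 and 2457, and the 5609 at 24 against 15 months 3, 2630 and 1290 by prep. The 2385 at 28 against 24 months became 0 and 198 in preps 2 and 3, 272 with the clock score, 3673 without the 2 least similar livers, 1152 with 2 ages and 4502 with voom. The 11132 over all ages became 5929, 4464 and 6455 by prep. In brain the 1882 at 24 months became 222, 112 and 92 by prep, 3193 without the 2 least similar brains and 4844 with voom. The 5291 at 28 months became 1987, 368 and 1205 by prep and 3059 with 2 ages, and the 3853 over all ages 903, 266 and 376 by prep and 7990 with voom.

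Replicate numbers did not pair the mice of different ages: 3 of 16 pairs in liver and 5 of 15 in brain correlated above 0.1. With the number as a replicate block, 4 members were called in liver, against 60.9% of all genes, and 5 in brain at 28 months, against 25.9%, Gstp2 being added in brain (adjusted p = 0.0457). With the mouse as a block across tissues, fitted with limma, 5 of 8 members and 45.8% of all genes differed between tissues, among them Gstp1 at -2.61 (adjusted p = 1.97e-23). The settings without the 2 least similar libraries or the 5 livers and the limma block were chosen after seeing the data. Few counts limited the precision for Gsta2, Gstp3 and Gstm3 in brain, where most libraries had at most 3.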

Other observations

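Il17ra, the receptor subunit for interleukin 17, had the lowest correlation with both Gsta3 (r = -0.81) and Gstm1 (r = -0.69) across 83 livers with age and prep removed, among 12734 genes. For Gsta3 the next were Alpk1, an innate immune kinase (r = -0.80), and Osmr, the oncostatin M receptor (r = -0.79). For Gstm1 the next were Myd88, an adaptor of innate immune receptors (r = -0.68), and Steap4 (r = -0.67). For Gstp1 the lowest were the female-biased transporter Slc22a26 (r = -0.70), Atp6v0d2 (r = -0.69) and Cyp2c39 (r = -0.66). These genes were picked after their values had been seen, so they carry no test, and the libraries share depth and cell makeup.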
